A study of Homo sapiens with 9 samples.

Results

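Expression of 9 genes of thyroid lineage and thyroid hormone synthesis was examined in KHM-5M, a human thyroid cancer cell line. The study describes this line as aggressive, with mutations of both BRAF and the TERT promoter. The genes were chosen by name as a group, with earlier results of these data known, and all 9 of 9 were found among the 58735 genes listed. KHM-5M cells were kept for 24 h with DMSO, the solvent control, or with 0.3 μM or 1 μM of YK-4-279, a compound described as an inhibitor of ETS family transcription factors. Each of the 3 groups held 3 samples, 9 in all, and all came from this single line, with no normal thyroid beside it. The study's methods speak of biological replicates, but nothing in the labels says that the 3 samples of a group were separate cultures, and p-values then measure only the spread between these samples. The comparisons address how far the line keeps a thyroid expression program and whether the drug changes it.

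Thyroid follicular cells make thyroid hormone from iodide and thyroglobulin. PAX8, NKX2-1, FOXE1 and HHEX are the transcription factors that mark the thyroid bud and, together, maintain the follicular cell. Thyrotropin (TSH) acts on its receptor TSHR, largely through cAMP. SLC5A5 brings iodide into the cell, DUOX2 makes the hydrogen peroxide needed to iodinate TG, and DIO2 converts the prohormone thyroxine to the active hormone. Thyroid cancers that have lost differentiation often express little of the synthesis machinery.

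Positions are those of the deposited table (GRCh38). PAX8 spans chr2:113215997-113278950 on the minus strand, HHEX chr10:92689951-92695646 on the plus strand and FOXE1 chr9:97853254-97856715 on the plus strand. NKX2-1 (chr14:36516392-36521149, minus), TSHR (chr14:80954989-81146302, plus) and DIO2 (chr14:80197527-80387757, minus) share chromosome 14. SLC5A5 spans chr19:17871973-17895174 on the plus strand and DUOX2 chr15:45092650-45114344 on the minus strand.

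The 250 bases upstream of a RefSeq transcript start are shown for 4 members: PAX8 and HHEX, the 2 that were well expressed, and TSHR and DIO2, which were at or near 0. The sequences are RefSeq reference sequence (GRCh38.p14), printed 5′ to 3′ on the strand of the gene, with each CpG dinucleotide in capitals. They are chr2:113278922-113279171 (minus), chr10:92689705-92689954 (plus), chr14:80955371-80955620 (plus) and chr14:80212179-80212428 (minus). The RefSeq starts of TSHR and DIO2 lie inside the longer gene spans of the deposited table, so these windows do not precede the gene ends given above.
PAX8: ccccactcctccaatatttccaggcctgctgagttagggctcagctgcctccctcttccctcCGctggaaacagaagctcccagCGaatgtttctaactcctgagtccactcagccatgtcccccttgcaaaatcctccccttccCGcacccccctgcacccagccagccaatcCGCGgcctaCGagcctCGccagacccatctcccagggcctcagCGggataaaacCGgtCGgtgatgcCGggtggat
HHEX: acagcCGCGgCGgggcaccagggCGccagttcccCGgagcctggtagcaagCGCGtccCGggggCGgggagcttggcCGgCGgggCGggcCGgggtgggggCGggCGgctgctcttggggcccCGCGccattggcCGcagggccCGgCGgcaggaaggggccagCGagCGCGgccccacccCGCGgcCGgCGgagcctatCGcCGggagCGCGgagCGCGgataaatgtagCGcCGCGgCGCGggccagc
TSHR: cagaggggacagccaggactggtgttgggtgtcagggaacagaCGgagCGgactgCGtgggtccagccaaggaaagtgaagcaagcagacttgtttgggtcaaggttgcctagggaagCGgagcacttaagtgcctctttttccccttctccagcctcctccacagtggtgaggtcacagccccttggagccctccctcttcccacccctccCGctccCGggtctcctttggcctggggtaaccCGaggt
DIO2: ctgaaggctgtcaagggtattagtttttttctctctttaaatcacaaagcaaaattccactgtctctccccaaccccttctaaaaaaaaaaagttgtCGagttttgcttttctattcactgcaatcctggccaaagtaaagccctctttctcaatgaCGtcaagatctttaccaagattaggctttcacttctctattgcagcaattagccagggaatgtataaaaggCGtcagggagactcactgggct

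HHEX had a CpG-dense window with 38 CpG, more than 96.7% of the 35116 windows of this length in the reference. PAX8 had 11 CpG, more than 49.7% of windows, although its transcript was the more abundant. For comparison, the median was 22 CpG (quartiles 15 and 29) over 8516 windows of protein-coding genes at 1 FPKM or more in DMSO, and 7 (quartiles 2 and 19) over 6380 windows of those under 1 FPKM. FPKM values are read counts scaled for gene length and library size, the length-adjusted level used here to compare genes. TSHR had 7 CpG and SLC5A5 8, whereas FOXE1, expressed at a low level, had 26. The CpG counts therefore did not follow the order of expression among the members. The 6 letters CCGGAA, a strict form of the site that many ETS factors bind, were searched on both strands. They were in the windows of 0 of the 8 members that have an entry, compared with 14.5% of all windows. The shorter letters GGAA were not searched, and they can be read in each of the windows shown, so sites of that form are not covered. The cAMP response element TGACGTCA, in 1.65% of all windows, was found in the DIO2 window shown. It was not in the other DIO2 window of the reference (chr14:80211505-80211754). No match says only that these letters are not in this window.

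PAX8 and HHEX were the only members at 1 FPKM or more in DMSO, 2 of 9, whereas 53.3% of the 19951 protein-coding genes listed reached that level. PAX8 read counts were 3038, 3024 and 2809 in DMSO, 3660, 3246 and 2879 at 0.3 μM and 3275, 2767 and 2742 at 1 μM. The 3 groups overlapped. The PAX8 level in DMSO was 22.8 ± 0.774 FPKM (SD, n = 3), above 90.6% of protein-coding genes and rank 65 of the 1553 genes that the deposited table assigns to a transcription factor family. Of all counts given to the 9 members, 88.5% to 93.4% per library came from PAX8.

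HHEX, a homeobox factor of early thyroid, liver and blood, had 297, 262 and 265 counts in DMSO, 231, 312 and 260 at 0.3 μM and 277, 279 and 320 at 1 μM. These ranges also overlapped. Its level in DMSO was 6.22 ± 0.539 FPKM (SD, n = 3), above 70.1% of protein-coding genes and rank 324 among the transcription factors. PAX8 exceeded HHEX in every DMSO library without overlap, 3.67-fold on the FPKM scale, and the ratio ran from 2.92 to 5.41 over the 9 libraries. HHEX in turn exceeded the next member, FOXE1, 29.4-fold with no overlap in DMSO.

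FOXE1, the forkhead factor of the migrating thyroid bud, was detected in every library at a low level. Its counts were 7, 24 and 8 in DMSO, 12, 25 and 17 at 0.3 μM and 7, 34 and 27 at 1 μM. The highest count of all 9 libraries was at 1 μM, the lowest (7) was reached both in DMSO and at 1 μM, and the groups overlapped. In each group the replicate numbered 2 was the highest. The DMSO level was 0.211 ± 0.148 FPKM (SD, n = 3), above 37.2% of protein-coding genes.

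NKX2-1, the homeobox factor shared by thyroid, lung and forebrain, had 2, 10 and 2 counts in DMSO, 6, 3 and 5 at 0.3 μM and 0, 0 and 3 at 1 μM. In 6 of 9 libraries it did not exceed the 3 counts that a count of 0 allows, which corresponded to 0.164 to 0.177 CPM (counts scaled to library size) over the libraries. Its DMSO level was 0.0826 ± 0.0793 FPKM (SD, n = 3), with an SD close to the mean, and DMSO levels of FOXE1 and NKX2-1 overlapped. GLIS3, a further thyroid transcription factor that is not among the 9, was expressed at 2.58 FPKM. Of 5 thyroid transcription factors listed, 3 (PAX8, HHEX and GLIS3) thus reached 1 FPKM.

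The receptor and the synthesis genes were hardly detected. TSHR had 0 counts in all DMSO and all 1 μM libraries and 1, 2 and 2 counts at 0.3 μM. All 5 TSHR reads thus fell in a single group, but no library exceeded the 3-count limit. CEP128, which overlaps TSHR on the opposite strand, had 326 to 466 counts, and whether counting used strand is not given in the sources used here. TG, the hormone precursor protein, had 2, 0 and 1 counts in DMSO, 0, 4 and 0 at 0.3 μM and 4, 0 and 0 at 1 μM, or 11 counts over the 9 libraries. SLC5A5, the sodium iodide symporter, had 1 count in 1 DMSO library and 0 in the other 8. DUOX2 had 1 count in 1 library at 0.3 μM and 0 in the other 8. In DMSO the levels of SLC5A5, TG, TSHR and DUOX2 overlapped, so that no order could be set among them, and 14.3% of protein-coding genes had 0 counts in all 9 libraries.

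DIO2, the activating deiodinase, had 5, 8 and 4 counts in DMSO, 9, 3 and 8 at 0.3 μM and 10, 7 and 5 at 1 μM. Its counts were low but present in each library, and the groups overlapped. At 0.0429 ± 0.0143 FPKM in DMSO (SD, n = 3), DIO2 was not separated from NKX2-1. Its observed DMSO values lay above those of SLC5A5. The limit of 3 counts corresponds to 0.0450 to 0.0486 FPKM for SLC5A5, so DIO2 and SLC5A5 could not be ordered.

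**Figure D1:**
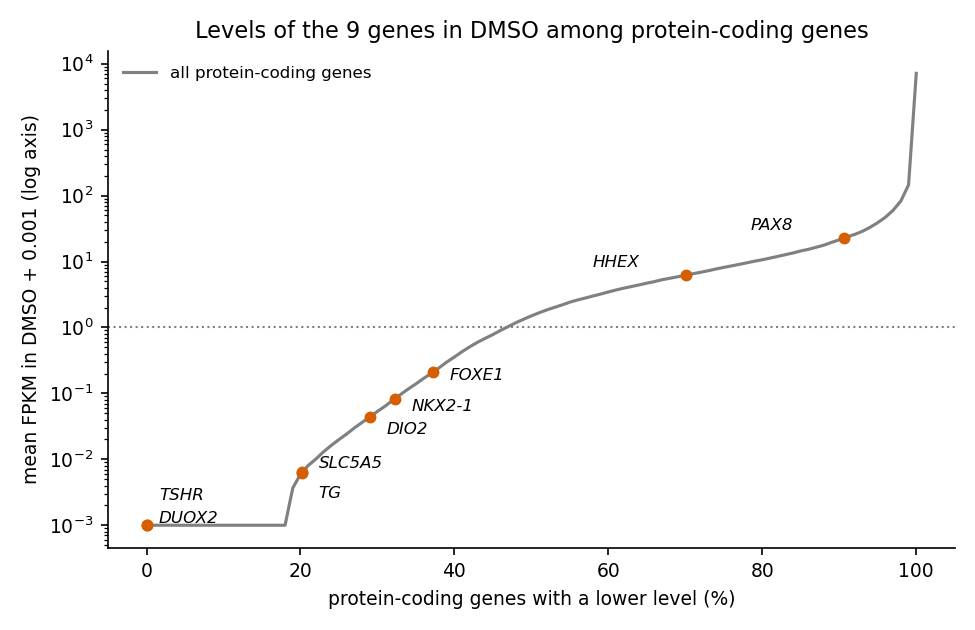
Mean level of each of the 9 genes in the 3 DMSO libraries (points; y axis, FPKM + 0.001 on a log scale) against the percentage of protein-coding genes with a lower level (x axis), with all protein-coding genes as the grey line and 1 FPKM as the dotted line. PAX8 at 22.8 FPKM and HHEX at 6.22 FPKM lie above the dotted line, and the other 7 genes lie below it.

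**Figure D2:**
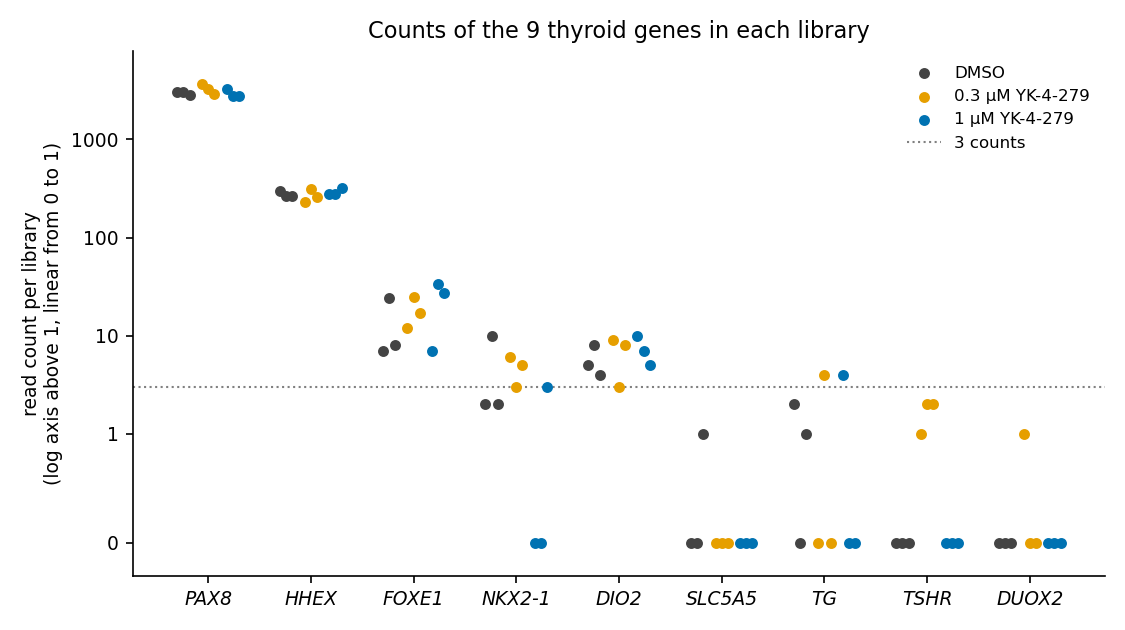
Read counts (y axis, logarithmic above 1 and linear from 0 to 1) of the 9 genes in each of the 9 libraries, coloured by group, 3 points per group, with a dotted line at 3 counts. PAX8 and HHEX keep to narrow ranges of 2742 to 3660 and 231 to 320 counts, whereas TSHR, SLC5A5, TG and DUOX2 have at most 4 counts in any library.

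As a check of the thyroid label, 6 follicular cell genes were examined (TG, TSHR, SLC5A5, PAX8, NKX2-1 and FOXE1). Of these only PAX8 reached 1 FPKM. PAX8 is also expressed in kidney and Müllerian epithelium. Of 4 other genes of those tissues, LHX1 (2.63 FPKM in DMSO) and WT1 (1.35 FPKM) reached 1 FPKM, and PAX2 and MUC16 had at most 4 counts in every library. Of 6 fibroblast markers 3 reached 1 FPKM in DMSO (COL1A1 at 47.8, PDGFRB at 6.89 and LUM at 3.12 FPKM). None of the listed markers of thyroid C cells (7), lung epithelium (5), liver (5), parathyroid (3), endothelium (5), immune cells (5), melanocytes (5) or colon epithelium (5) reached 1 FPKM. Of 6 simple epithelium genes 5 did, with the keratins KRT8 at 190.5 and KRT18 at 132.5 FPKM in DMSO, whereas the sixth, the adhesion gene CDH1, had 0 to 5 counts in DMSO.

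No change of a thyroid lineage gene passed the test at 1 μM YK-4-279. Only PAX8, HHEX and FOXE1 passed the filter on low counts, and 0 of these 3 were called by edgeR's quasi-likelihood test at an adjusted p under 0.05, compared with 17.6% of the 15617 genes tested. The count was also 0 at an unadjusted p under 0.05, which 31.9% of all genes passed, and 0 with DESeq2. With 3 tested members the counts cannot be set against that background. The fold change of PAX8 at 1 μM had a narrow interval around no change. Its log2 fold change was -0.04 (SE 0.06, 95% interval -0.17 to 0.09, adjusted p = 0.724 by edgeR's quasi-likelihood test), so that the interval covers 0.892- to 1.07-fold. HHEX differed from DMSO by 0.07 on the log2 scale (SE 0.11, 95% interval -0.17 to 0.31, adjusted p = 0.715 by edgeR). For FOXE1 the same difference was 0.80 (SE 0.55, adjusted p = 0.342 by edgeR), with an interval of -0.38 to 1.98 that holds both no change and a 3.95-fold rise. The median absolute log2 difference over all genes tested was 0.166.

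At 0.3 μM, 0 of the 3 tested members were called by edgeR, and over all genes the share was 0%, with 0 of 15762 called. At an unadjusted p under 0.05 the count was 0 of 3 members and 3.77% of all genes, and DESeq2 called 0 members. PAX8 differed by 0.11 on the log2 scale (SE 0.08), HHEX by -0.07 (SE 0.13) and FOXE1 by 0.44 (SE 0.46), with an adjusted p of 0.995 by edgeR for each. Both drug comparisons share the same 3 DMSO libraries.

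Between the doses, 0 of 3 members were called by edgeR, compared with 12.6% of 15583 genes. The count was 0 at an unadjusted p under 0.05, which 27.6% of all genes passed, and 0 with DESeq2. PAX8 was 0.14 lower at 1 μM than at 0.3 μM, a log2 difference of -0.14 (SE 0.08, 95% interval -0.29 to 0.02, adjusted p = 0.258 by edgeR). Without replicate 3 of the 0.3 μM group the difference became -0.21, with an adjusted p of 0.0481 by edgeR. HHEX differed by 0.15 (SE 0.12) and FOXE1 by 0.36 (SE 0.46), with adjusted p = 0.471 and 0.657 by edgeR.

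**Figure D3:**
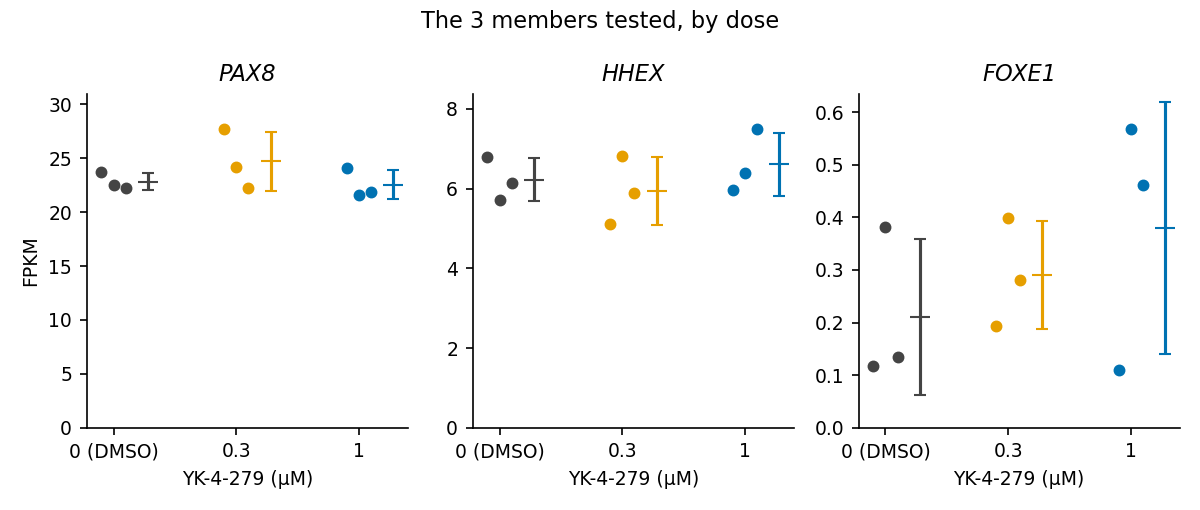
FPKM (y axis, from 0) of PAX8, HHEX and FOXE1 by YK-4-279 concentration (x axis, μM). Points are the 3 libraries of each group and the bars are the mean ± SD. The groups overlap for all 3 genes, with PAX8 means of 22.8, 24.7 and 22.5 FPKM and FOXE1 means of 0.211, 0.291 and 0.379 FPKM from 0 to 1 μM.

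For members under the filter, summed counts of the 3 libraries per group were compared by an exact conditional interval for the ratio of library-size-adjusted counts, which covers counting error only. NKX2-1 had 3 counts at 1 μM and 14 in DMSO, a ratio of 0.210 (95% interval 0.0387 to 0.753). Of its 14 DMSO counts 10 came from replicate 2, and 1 μM replicate 3 overlapped the DMSO libraries. Against 0.3 μM, where the 14 NKX2-1 counts were spread as 6, 3 and 5, the ratio was 0.216 (95% interval 0.0399 to 0.775), again with overlap of the groups at 3 counts. With the minimum count lowered to 1, edgeR gave NKX2-1 a log2 difference of -2.07 from DMSO (SE 1.17, 95% interval -4.67 to 0.26, adjusted p = 0.234) and of -2.06 from 0.3 μM (SE 1.07, 95% interval -4.42 to 0.03, adjusted p = 0.217), neither of which passed the test. DIO2 had 22 counts at 1 μM and 17 in DMSO, a ratio of 1.27 (95% interval 0.643 to 2.54). TG had 4 and 3 counts, a ratio of 1.31 (95% interval 0.221 to 8.92). A fall of TG, TSHR, SLC5A5 or DUOX2 was not detectable at this depth, and a rise of TG above the upper bound lay outside the counting interval.

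PAX8-AS1, an antisense RNA that overlaps PAX8, was counted at 331, 396 and 254 in DMSO, 324, 318 and 266 at 0.3 μM and 337, 210 and 253 at 1 μM. Its counts were 7.59% to 13.1% of those of PAX8, and the groups overlapped. At 1 μM its log2 difference from DMSO was -0.32 (SE 0.15, adjusted p = 0.173 by edgeR), which did not pass the test, while 14.5% of the 2717 genes tested that are not protein-coding were called lower and 0.736% higher. Reads of PAX8 and PAX8-AS1 cannot be told apart where they overlap if strand was not used.

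The genes with a course over the 9 libraries most like that of each tested member were found by the root mean square difference of centred log2 CPM over 12297 candidate genes. SPATA20 (0.0492) and TTLL4 (0.0543) were nearest to PAX8, against a median of 0.177 over all candidates. EFCAB11 (0.0692) and SPCS1 (0.0843) were nearest to HHEX, with a median of 0.199. For FOXE1 the nearest, ZNF846, was at 0.480 with a median of 0.754. Flat courses resemble each other by this measure.

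The 9 genes were then placed among 60 genes of thyroid differentiation, hormone synthesis, TSH signalling, hormone activation, transport and reception, and other genes listed as enriched in thyroid. Of the 60, 26 reached 1 FPKM in DMSO, 7 had 0 counts in all 9 libraries and 20 had at most 4 counts in every library. Of 16 genes of the thyroid differentiation score, a published measure of thyroid-specific expression, 3 reached 1 FPKM (PAX8, GLIS3 and THRA at 7.59 FPKM). Of 11 hormone synthesis genes 0 reached 1 FPKM, and the summed level of the list was 0.441 to 0.629 FPKM in DMSO. DUOX1, the neighbour and paralogue of DUOX2, and SLC26A4, an apical iodide transporter, were the 2 of this list above the filter. By contrast, 11 of 13 genes of TSH receptor signalling and 11 of 20 genes of hormone activation, transport and reception reached 1 FPKM. Of 11 other genes listed as enriched in thyroid 1, FHL1 at 29.6 FPKM, reached 1 FPKM and 8 had at most 4 counts in every library. This list was a choice of names, and whether FHL1 is particular to thyroid was not tested. The signalling and transport genes that reached 1 FPKM include ones that most cells use. Among them are GNAS, the stimulatory G protein subunit, at 117 FPKM and SLC3A2, an amino acid transporter subunit, at 45.2 FPKM.

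At 1 μM, 4 of the 33 genes tested changed by edgeR's test, 1 higher and 3 lower (12.1%, against 17.6% of all genes tested, with 7.67% higher and 9.95% lower). The groups did not overlap for 10 of the 33, compared with 35.8% of all genes. The median log2 difference was 0.02, compared with -0.01 over all genes and 0.015 over protein-coding genes. The changes were small. PDE4D, a phosphodiesterase that degrades cAMP, had 416, 407 and 424 counts in DMSO and 600, 545 and 514 at 1 μM, and rose by 0.39 on the log2 scale (SE 0.08, adjusted p = 0.00479 by edgeR, 3 of 3 samples above DMSO). THRA, a thyroid hormone receptor, fell by 0.25 (SE 0.07, adjusted p = 0.0317 by edgeR). SECISBP2, needed to make selenoproteins such as the deiodinases, fell by 0.26 (SE 0.07, adjusted p = 0.0235 by edgeR). FHL1, a LIM domain protein, fell by 0.20 (SE 0.06, adjusted p = 0.0264 by edgeR). On the CPM scale all 3 samples at 1 μM were below all DMSO samples for these 3 genes. The calls of THRA, SECISBP2 and FHL1 were each lost when any of 4 of the 6 libraries was left out, with an adjusted p by edgeR of up to 0.145 (THRA, without 1 μM replicate 1), 0.112 (SECISBP2, without 1 μM replicate 2) and 0.144 (FHL1, without DMSO replicate 3), whereas that of PDE4D was kept (0.00737 to 0.0218). Without DMSO replicate 3 or 1 μM replicate 3, PDE4D alone was called, 1 of 33 genes, and without DMSO replicate 1 the number was 6. COL1A1 and PDGFRB, 2 of 6 fibroblast markers, also fell at 1 μM, by 0.41 (adjusted p = 0.0132) and 0.48 (adjusted p = 0.000773 by edgeR), and their summed list level was 49.1 to 66.5 FPKM in DMSO and 43.0 to 48.5 FPKM at 1 μM. LUM, also on the list, differed by 0.33 (adjusted p = 0.109 by edgeR), and COL1A2, COL3A1 and DCN had at most 10 counts in any library. Changes among marker genes were not limited to the fibroblast list and went in both directions. CDH17, 1 of 2 colon epithelium genes tested, fell by 1.01 at 1 μM (adjusted p = 0.0454 by edgeR), from a low mean of 1.70 CPM in DMSO. WT1, of the kidney and Müllerian list, rose by 0.60 (adjusted p = 0.0198 by edgeR), a call that some left-out samples ended. The part of these marker genes in the result was not tested.

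DUOX1 counts summed to 80 in DMSO and 49 at 1 μM without overlap of the groups, but its log2 difference of -0.73 (SE 0.34, adjusted p = 0.149 by edgeR) did not pass the test. SLC26A4 differed by 0.32 (SE 0.28, adjusted p = 0.477 by edgeR), with 3 of 3 samples at 1 μM above DMSO on the CPM scale. The groups thus did not overlap for 2 of the 2 tested hormone synthesis genes, in opposite directions, compared with 35.8% of all genes. Within the TSH signalling list 1 of 12 tested genes was higher at 1 μM (PDE4D), compared with 7.67% of all genes. The median log2 difference of the list was 0.12, compared with -0.01 over all genes and 0.015 over protein-coding genes. GNAS was lowest in DMSO replicate 2, with 23123 counts against 29362 and 29107 in the other two.

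At 0.3 μM, 0 of 33 genes were called by edgeR or DESeq2, compared with 0% of all genes by edgeR. The count was also 0 at an unadjusted p under 0.05, which 3.77% of all genes passed. The groups did not overlap for 1 of the 33, the adenylate cyclase gene ADCY9 (named after its values were seen), compared with 8.43% of all genes. Between the doses, PRKACB, a catalytic subunit of the cAMP-dependent kinase, was higher at 1 μM by 0.29 (SE 0.09, adjusted p = 0.0483 by edgeR) and FHL1 was lower by 0.21 (SE 0.06, adjusted p = 0.0359 by edgeR), 2 of 33 genes compared with 12.6% of all genes (5.85% higher and 6.75% lower). The 2 doses did not overlap for 7 of the 33, compared with 31.4% of all genes. Leaving out any 1 μM library left 0 genes called between the doses. SLC7A5, which forms an amino acid and thyroid hormone transporter with SLC3A2, had 2207, 2221 and 3771 counts at 0.3 μM. Replicate 3 of that group was high for both subunits, at 3771 for SLC7A5 and 6174 for SLC3A2, and neither gene was called.

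**Figure D4:**
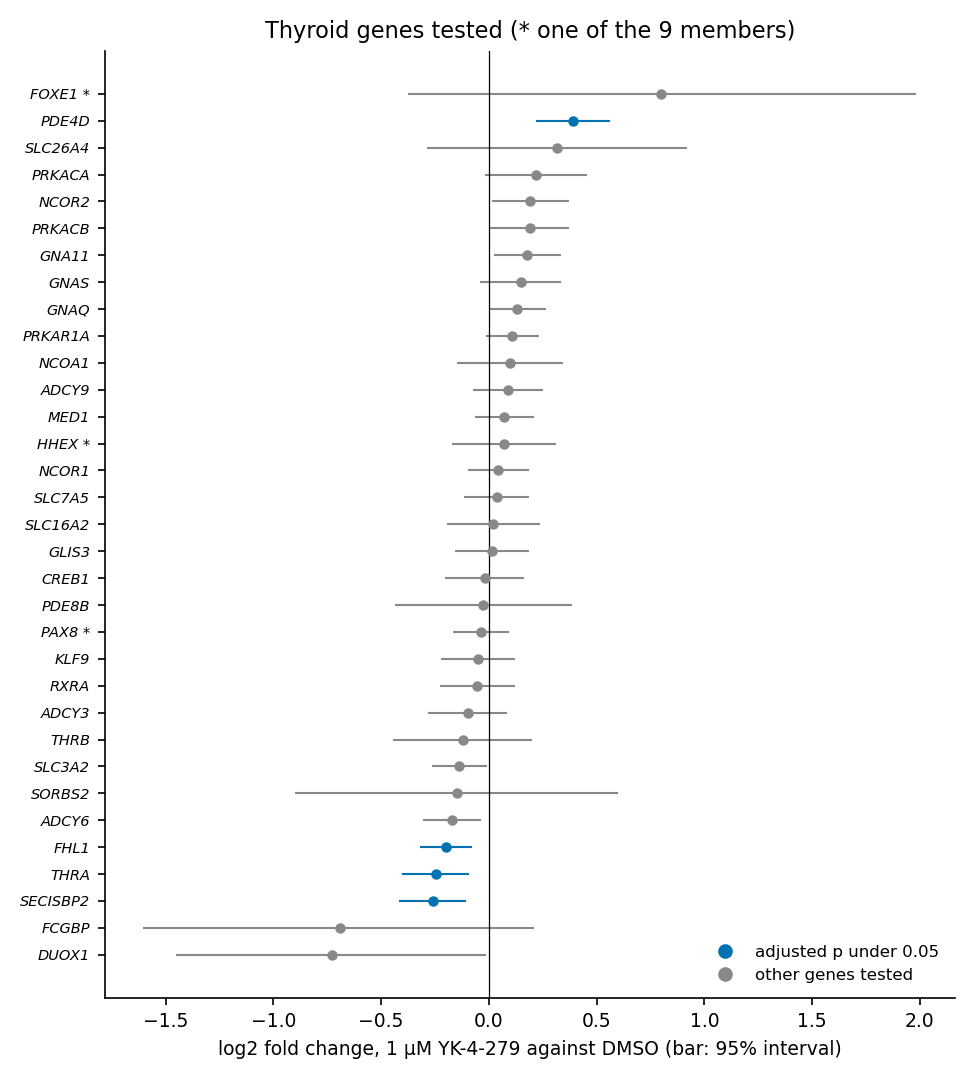
Log2 fold change at 1 μM against DMSO (x axis) of the 33 thyroid-related genes tested (rows), with 95% intervals as bars. Genes called by edgeR at an adjusted p under 0.05 are blue and members of the 9 carry an asterisk. PDE4D (0.39) lies to the right and FHL1 (-0.20), THRA (-0.25) and SECISBP2 (-0.26) to the left of 0, and the intervals of PAX8, HHEX and FOXE1 cross 0.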

How the data were processed

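RNA-seq counts of 9 samples were used, 3 for each of DMSO, 0.3 μM and 1 μM YK-4-279. Per the labels and the study's methods, the authors made poly-A selected libraries, with a kit that the methods name as stranded and the labels name without that word. The methods also name another kit, for small RNA, as used for the mRNA library. Reads were aligned to GRCh38 with HISAT2 (2.0.5 in the submitters' processing notes) and counted per gene. The notes name featureCounts 1.5.0-p3 and DESeq2 1.20.0, the methods name HTseq, and the methods describe biological replicates, fewer than the 3 labelled samples per group. Whether the counting step used strand is not given in the sources used here. The deposited counts are whole numbers without normalization, and the authors also deposited FPKM values, which were 0.977 to 1.01 times the length- and depth-scaled counts computed from them. The deposited log2 fold changes, p-values and adjusted p-values of the authors' comparisons, and their normalized signal columns, were not used.

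Counts summed to 16903251 to 18238884 per sample. The exact conditional intervals for ratios of summed counts, and the 3-count limit, cover counting error only. The intervals of log2 differences come from the edgeR fit and also take in the spread between samples. After filterByExpr (minimum count 10) and TMM normalization, genes were tested with glmQLFit and glmQLFTest in edgeR 4.0.16 (R 4.3.3) on the groups compared, two-sided, with Benjamini-Hochberg adjustment over all genes tested. A gene was called at an adjusted p under 0.05. A permutation test of 3 against 3 samples cannot go below p = 0.1 and was not run. Alternatives were DESeq2 1.42.0, RLE size factors, a lower count minimum (1), a joint fit of the 9 samples, a replicate block, a 1.5-fold cutoff, the unadjusted p and each sample left out. The likeness measure used log2 CPM with a prior count of 2. Python 3.11.15 was used for tables and plots. On simulated data for 1 μM against DMSO (15366 genes), edgeR recovered 80 of 100 genes changed by a log2 of 1 and 62 of 100 changed by 0.6, with 11 false calls. The simulation changed 200 genes drawn at random, whereas 2752 were called in the data. These rates therefore do not give the power for any single member or for smaller changes. All 9 members were named, and from the wider lists the genes called and some others, while those at 0 were given as a number only. Members and lists were chosen with earlier results of these data known. RefSeq promoter windows matched 8 of 9 members. One listed gene is not reported here by name.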

Additional observations from a re-analysis of the deposited data

How the results depend on the processing

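At 1 μM the number of wider thyroid genes called (4) became 1 with the replicate block (PDE4D, without THRA, SECISBP2 and FHL1), 0 with a 1.5-fold cutoff and 10 with the unadjusted p, and was 1 to 6 when a sample was left out. Between the doses the number (2) became 1 with DESeq2, with RLE size factors, with a minimum count of 1 and with all 9 samples in a single fit, 0 with the block and with the 1.5-fold cutoff, 8 with the unadjusted p and 0 to 2 with a sample left out. Members called between the doses were 0 to 1 with a sample left out, and 0 in the other comparisons under all these alternatives. The number of members at 1 FPKM or more (2) was 2 at 0.5 FPKM and 3 at 0.1 FPKM. Log2 differences near 0 changed sign when a sample was left out, with ranges of -0.0249 to 0.148 for HHEX at 1 μM, -0.177 to 0.0297 for HHEX, -0.0232 to 0.0573 for FHL1 and -0.0756 to 0.0560 for THRA at 0.3 μM, and -0.0484 to 0.813 for FOXE1 between the doses. The cause was not tested. THRA also lost its call with DESeq2 (adjusted p = 0.0604), and COL1A1 with DESeq2 (adjusted p = 0.0867) and without 1 μM replicate 1 (adjusted p = 0.0584 by edgeR). Same-numbered samples of different groups correlated at -0.02 to 0.08 over genes (9 pairs), and different-numbered samples at -0.07 to 0.04 (18 pairs). Between DMSO and 0.3 μM the same-numbered pairs (0.02 to 0.08) all lay above the different-numbered pairs (up to 0.006). Over all pairs the 2 ranges overlapped near 0, and the numbers were not taken to pair the samples. At the minimum count of 10, 6 of the 9 members were not tested, and with a minimum of 1 NKX2-1 and DIO2 were tested as well and not called.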

Other observations

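PAX6, a paired box factor of eye, brain and pancreas, was the other PAX gene at 1 FPKM or more in DMSO, at 2.64 FPKM, beside PAX8. It was chosen after its values were seen. PAX6 counts were 949, 903 and 1026 in DMSO, 873, 995 and 1073 at 0.3 μM and 678, 663 and 672 at 1 μM. All 3 libraries at 1 μM lay below the other 6. Of 3 PAX genes tested, 2 did not overlap between 1 μM and DMSO, compared with 35.8% of all genes. The second, PAX9, went the other way by 0.72 on the log2 scale (SE 0.32, adjusted p = 0.131 by edgeR) and was not called. PAX6 fell by 0.54 at 1 μM on the log2 scale (SE 0.08, adjusted p = 0.00049 by edgeR's quasi-likelihood test, and 2.83e-05 to 0.00556 with a sample left out), whereas the interval of PAX8 was -0.17 to 0.09. The difference between the 2 genes was not tested.

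NKX2-5, a cardiac homeobox gene, was the 1 of 7 NKX2 genes at 1 FPKM or more, at 3.15 FPKM in DMSO, where NKX2-1 was at 0.0826 FPKM. This family too was chosen after its values were seen. WT1, a kidney and gonad factor, rose by 0.60 at 1 μM (SE 0.16, adjusted p = 0.0198 by edgeR, and up to 0.0873 when DMSO replicate 3 or 1 μM replicate 1 or 3 was left out, each of which ended the call), and LHX1 differed by 0.11 (adjusted p = 0.622 by edgeR).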
